A study of Mus musculus with 3 samples.

Results

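The 7 genes described here carry out presentation of peptides by major histocompatibility complex (MHC) class II. They are H2-Aa, H2-Ab1 and H2-Eb1, which encode chains of the peptide-binding molecules, Cd74, which encodes the invariant chain, H2-DMa and H2-DMb1, which encode the peptide editor H2-M, and Ciita, which encodes the class II transactivator. They were picked from the files by symbol, by a rule that uses no measured value, although the members were chosen with earlier results of these data known. All 7 were found among the 32285 genes of the files. Class II molecules take up peptides of extracellular proteins in endosomes and show them to CD4+ T cells. Cd74 guides newly made class II molecules to the endosome and blocks their groove, H2-M exchanges the remaining fragment for peptide, and CIITA binds no DNA itself but joins the factors on the X and Y boxes of class II promoters. Dendritic cells and B cells carry class II as a rule, macrophages to a degree that differs between tissue populations, and endothelial cells and fibroblasts mainly after interferon gamma.

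Single-cell RNA sequencing was performed on flexor digitorum longus (FDL) tendon of mouse hindlimb, with 1 library per group and 16 tendons of both sexes pooled in each. The study's methods name strain C57BL/6J for the mice of natural ageing. They give no strain background for the Scx-Cre mice that were crossed for the WT and DTR libraries, so mouse line and group cannot be told apart for B6. The 6 M WT library (genotype Scx-Cre-; DTR F/+) and the 6 M DTR library (Scx-Cre+; DTR F/+) came from mice that both received 5 daily injections of diphtheria toxin (DT), while the 21 M B6 library came from C57/Bl6 mice without injections. The Cre driven by Scleraxis (Scx) removes a stop cassette before the DT receptor, so that Scx-lineage cells of the DTR mice die after DT, and the study compared this depletion with natural ageing. Tendons were digested for 120 min in the WT library and for 90 min in the other 2, so digestion time and group cannot be told apart for either comparison with WT, and the labels give an age of 3 months for both young groups where the study's methods give 6 months at harvest. With a single library per group no difference between groups could be tested. Intervals given below are exact 95% intervals (Poisson for counts, binomial for shares, conditional binomial for ratios) and cover counting error only.

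After keeping barcodes with 1000 to 5000 genes and at most 10% mitochondrial UMIs (unique molecular identifiers, 1 per captured RNA molecule), 8357 cells remained in WT, 6554 in DTR and 4798 in B6, with medians of 12328 to 13008 UMIs. The mitochondrial limit was exceeded by 27.6% of barcodes in WT, 43.1% in DTR and 56.5% in B6. Kept barcodes shared by pairs of libraries numbered 13 to 15. Cells were put into classes by marker genes, none of them a member. The macrophage gate (C1qa, C1qb, C1qc) held 503, 1029 and 454 cells in WT, DTR and B6, and all 8 further macrophage markers, among them Pf4, Mrc1 and Csf1r, were detected there in every library. Cells with pan-myeloid genes that passed none of the macrophage, T or NK and B gates, called other myeloid, numbered 126, 109 and 64. They could still hold C1q UMIs below the macrophage gate. The stromal gate (Col1a1, Col1a2, Dcn, Lum, Fmod) held 6746, 4061 and 3287 cells. The endothelial gate held 145, 139 and 98 cells. A cell that passed more than 1 gate was set aside as mixed.

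The members on chromosome 17 lie in the class II region of the MHC, in GENCODE M21 (GRCm38) from H2-DMa at 34119541-34139101 to H2-Eb1 at 34305867-34316674. H2-DMa is on the plus strand and overlaps Brd2 (34112023-34122634), which is on the minus strand. Ciita lies on chromosome 16 at 10480059-10528418. RefSeq promoter windows (GRCm38.p6, 250 bases before to 50 after the start, 300 in all) were at hand for 4 of the 7 members, and 3 are printed. These 3 hold GATTGG 49 to 62 bases before the start, and 2 of them also hold ACNGATG on the strand of the gene. Each is written 5′ to 3′ on the strand of its gene, with capitals for the letters ACNGATG (X box) and GATTGG (Y box) where they were found on that strand.
H2-Eb1: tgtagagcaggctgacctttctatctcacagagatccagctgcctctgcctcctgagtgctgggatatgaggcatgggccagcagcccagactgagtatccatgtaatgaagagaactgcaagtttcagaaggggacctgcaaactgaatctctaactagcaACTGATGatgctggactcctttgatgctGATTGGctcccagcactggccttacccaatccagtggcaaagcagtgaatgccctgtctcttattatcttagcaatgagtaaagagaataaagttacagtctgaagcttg
H2-DMb1: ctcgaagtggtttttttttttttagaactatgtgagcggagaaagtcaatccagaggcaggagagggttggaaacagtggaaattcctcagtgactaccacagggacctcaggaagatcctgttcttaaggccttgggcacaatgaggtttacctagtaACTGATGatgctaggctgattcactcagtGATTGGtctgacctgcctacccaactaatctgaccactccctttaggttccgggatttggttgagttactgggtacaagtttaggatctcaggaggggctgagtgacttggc
H2-Aa: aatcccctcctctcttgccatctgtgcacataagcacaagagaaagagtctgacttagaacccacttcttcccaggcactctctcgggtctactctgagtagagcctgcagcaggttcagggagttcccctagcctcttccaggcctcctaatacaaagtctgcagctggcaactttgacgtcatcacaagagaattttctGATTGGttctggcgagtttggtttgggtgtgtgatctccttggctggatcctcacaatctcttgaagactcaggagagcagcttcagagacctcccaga
The windows are chr17:34305617-34305916 (plus strand), chr17:34152941-34153240 (plus strand) and chr17:34287774-34288073 (minus strand). In H2-Eb1 the X letters began 88 bases and the Y letters 60 bases before the start, and in H2-DMb1 they began 91 and 62 bases before it, so that first letters were 28 and 29 bases apart. H2-Aa held the Y letters 49 bases before its start and no ACNGATG on its own strand. On the opposite strand ACNGATG occurred near the far end of the window. Only these letters were searched for the X box, so the lack of a match does not show that H2-Aa has none. H2-DMa had 2 windows, of which the upstream one held neither motif on either strand and the other held GATTGG. Searched on both strands, GATTGG occurred in 16.1% of all 32851 windows and ACNGATG in 9.85%. Both in this order on the strand of the gene, with first letters 20 to 40 bases apart (a range set after these spacings were seen), occurred in 9 windows or 0.0274%, and 4 of the 9 belonged to H2-Eb1, H2-Eb2, H2-DMb1 and H2-DMb2. The matches describe letters in a window and are no evidence of binding.

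Class II message was held by few cells. Of all UMIs of H2-Aa, H2-Ab1, H2-Eb1 and Cd74 summed (the 4 genes below), macrophage-gated and other myeloid cells together held 85.6% in WT, 93.6% in DTR and 98.7% in B6, although they held 8.71%, 18.7% and 11.6% of the UMIs of all genes. The other myeloid cells alone, 1.33% to 1.66% of kept cells, held 61.2%, 57.2% and 74.1%. Stromal-gated cells, the bulk of each library, held 1.05%, 0.694% and 0.656%. In WT a further 11.7% lay in mixed cells, of which 23 passed the macrophage and stromal gates together and 15 the other myeloid and stromal gates. For H2-DMa the stromal share was larger, at 11%, 5.90% and 5.43%, and for Ciita it was 25.5%, 8.47% and 4.29%, on 47, 118 and 70 UMIs in all.

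**Figure D1:**
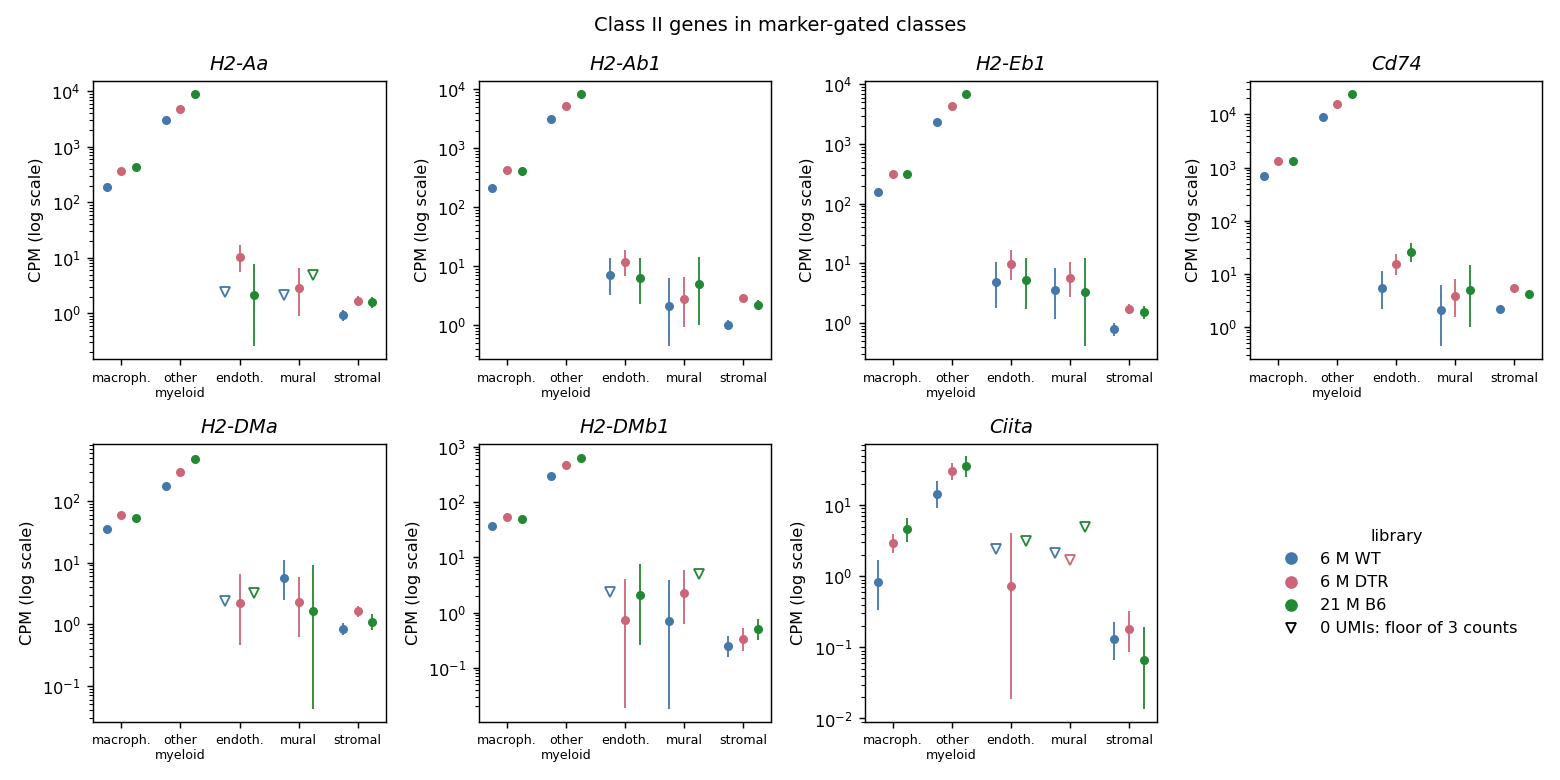
Levels (CPM, counts scaled to a total of 1000000 UMIs, log scale) of the 7 members in 5 marker-gated classes, with points for the summed counts of each library, bars for exact 95% Poisson intervals and open triangles for the level of 3 counts where no UMI was seen. Of these 5 classes every member was highest in other myeloid cells and next in macrophage-gated cells, with Cd74 at 24217 CPM in other myeloid cells and 4.23 CPM in stromal-gated cells of B6.

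Macrophage-gated cells of the DTR and B6 libraries held more class II message than those of WT, while the order of DTR and B6 depended on which cells were counted. H2-Aa, the alpha chain of the I-A molecule, was at 190 CPM (counts scaled to a total of 1000000 UMIs of the class) in WT, 373 in DTR and 428 in B6. H2-Ab1, its beta chain, was at 215, 434 and 411 CPM, and H2-Eb1, the I-E beta chain, at 156, 311 and 312 CPM. The I-E alpha chain gene H2-Ea was not found in the files, so H2-Eb1 RNA alone does not show an I-E molecule. All 3 chains were lowest in WT, while H2-Aa was highest in B6, H2-Ab1 highest in DTR and H2-Eb1 level between the 2 (ratio 1.00, 0.952 to 1.06). Cd74 was at 693 CPM (675 to 711) in WT, 1309 (1290 to 1328) in DTR and 1338 (1310 to 1366) in B6. The 4 genes summed were 1.94 times as high in DTR as in WT (1.89 to 1.98) and 1.99 times as high in B6 as in WT (1.94 to 2.03). These comparisons share the WT library, so they are not independent of each other. Summed markers of other myeloid cells also differed between the libraries in this class. The 9 dendritic markers summed to 22.9, 31.6 and 68.5 CPM in WT, DTR and B6, and the 4 monocyte markers to 28.9, 108 and 35.9 CPM, with 9, 9 and 8 of the former and 2, 4 and 3 of the latter above 0. In B6 most of the dendritic sum was Clec10a, and in each library nearly all of the monocyte sum was Ccr2. Clec10a was not higher in class II-rich than in other macrophage-gated cells of DTR and B6, as given below. The part of these markers in the ratios was not tested.

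The peptide editor differed less. H2-DMa was at 35.2, 58.4 and 51.9 CPM and H2-DMb1 at 37.6, 54.7 and 49.2 CPM in WT, DTR and B6. The ratio to WT was 1.66 (1.45 to 1.90) in DTR and 1.47 (1.26 to 1.73) in B6 for H2-DMa, and 1.46 (1.28 to 1.66) and 1.31 (1.12 to 1.53) for H2-DMb1. H2-DMb1 has the close paralog H2-DMb2, and reads that match both genes could be miscounted. With both summed the ratios were 1.45 and 1.30. H2-DMb2 gave only 5, 9 and 3 UMIs in WT, DTR and B6, so the sum could hardly change the ratios. It cannot show how reads that match both genes were counted. Ciita was at 0.835 CPM in WT (7 UMIs), 2.94 in DTR (42 UMIs) and 4.57 in B6 (30 UMIs), with ratios to WT of 3.52 (1.57 to 9.30) and 5.47 (2.35 to 14.7).

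**Figure D2:**
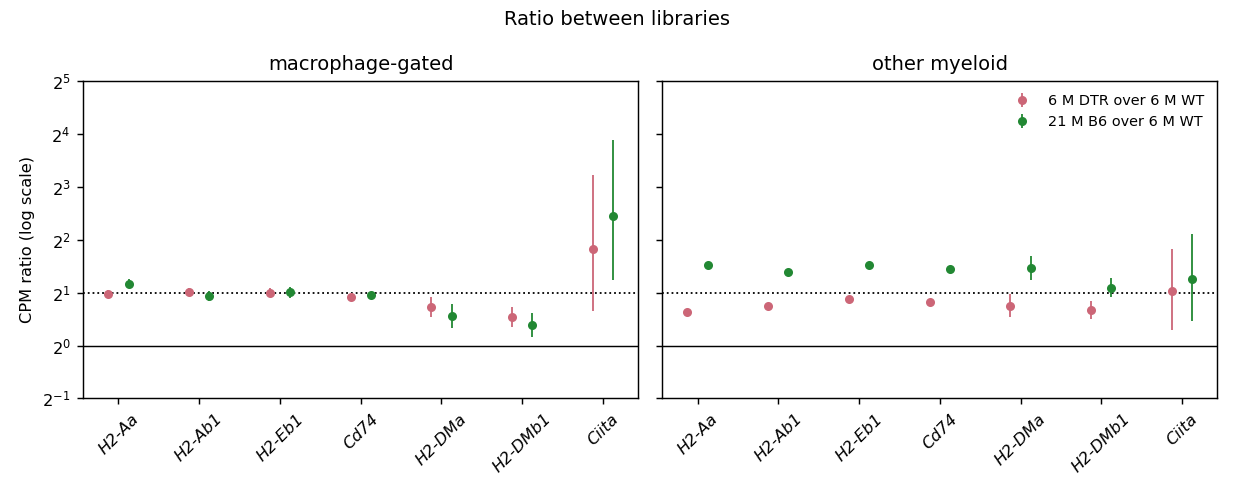
Ratio of CPM to the 6 M WT library (log scale) for each member in macrophage-gated cells (left) and other myeloid cells (right), with exact 95% intervals for counting error and a dotted line at 2. In macrophage-gated cells the ratios for H2-Aa, H2-Ab1, H2-Eb1 and Cd74 lay between 1.89 and 2.25 in both comparisons, and in other myeloid cells all 7 members of B6 lay above 2.

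A difference of at least 2-fold was reached by 1 of the 6 members tested (those with a pooled level of at least 5 CPM) in DTR over WT, H2-Ab1, where 1.14% of 8734 tested genes were called higher. In B6 over WT it was reached by 2 of 6, H2-Aa and H2-Eb1, with a background of 2.97%, and in B6 over DTR by none, with a background of 3.31%. The median log2 ratio of the 6 members was 0.94 in both comparisons with WT, where that of all tested genes was -0.02 for DTR and -0.08 for B6. Several members sat at the threshold itself, at log2 ratios of 0.92 to 1.01 for the 4 genes in DTR over WT, so a count of calls depends on small differences here. The ratio of B6 to DTR for the 4 genes was 1.03 (1.01 to 1.04) over all macrophage-gated cells, 0.982 without the cell with the most class II UMIs of each library, and 1.47 at a mitochondrial limit of 5%. Within cells called by sex it was 0.809 in female and 0.61 in male cells. Mitochondrial content differed beside these results, with a median of 2.94%, 3.12% and 5.77% in macrophage-gated cells, and its part was not tested.

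The 2 sexes in the pools did not give the same ratio. In cells called male (a UMI of a Y-linked gene and none of Xist), the 4 genes were at 952 CPM in WT, 1864 in DTR and 1136 in B6, on 138, 516 and 132 macrophage-gated cells. In cells called female they were at 1309, 3593 and 2908 CPM on 301, 334 and 256 cells. The ratio of B6 to WT was therefore 1.19 in male and 2.22 in female cells, while that of DTR to WT was 1.96 and 2.75. B6 lay below DTR within each sex, and the share of male cells among those called differed between the libraries. Male cells with at least 16 UMIs of the 4 genes per 10000 made up 5.07% (2.06 to 10.2) in WT, 11.8% (9.16 to 14.9) in DTR and 5.30% (2.16 to 10.6) in B6. Of female cells 3.65%, 15.3% and 13.7% reached that level. The difference between the sexes was not tested, and the number of animals of each sex in a pool was not found in the sources used here.

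**Figure D3:**
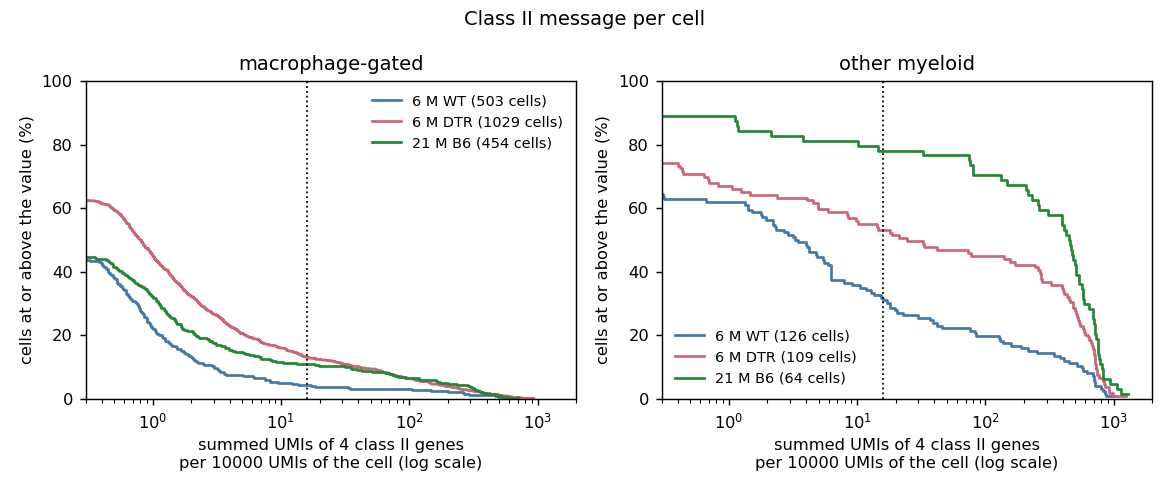
Percent of macrophage-gated cells (left) and other myeloid cells (right) whose summed H2-Aa, H2-Ab1, H2-Eb1 and Cd74 UMIs per 10000 reach the value on the horizontal axis (log scale), 1 line per library, with a dotted line at 16. At the dotted line the macrophage-gated lines stand at 4.37%, 13.0% and 11% and the other myeloid lines at 31.0%, 53.2% and 78.1% for WT, DTR and B6.

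The summed levels rested on a minority of cells. In WT 5 of 503 macrophage-gated cells held as many of the 4 genes' UMIs as all others together, and this number was 18 of 1029 in DTR and 11 of 454 in B6. A counting interval therefore understates the error of the sums. Cells with at least 16 UMIs of the 4 genes per 10000 (high cells below) numbered 22 in WT, 134 in DTR and 50 in B6, or 4.37% (2.76 to 6.55), 13.0% (11 to 15.2) and 11% (8.29 to 14.3). The intervals of DTR and B6 overlapped each other and neither overlapped that of WT. They cover only counting error over the cells of each pooled library, so they do not test a difference between groups. High cells held 95.1%, 94.5% and 97.3% of the UMIs, at 25008, 18421 and 22078 CPM, while the other cells were at 64.3, 151 and 74.5 CPM. The level within high cells was thus not lowest in WT, and the libraries differed in how many cells were high. Just below the limit, 7, 41 and 6 cells lay at 8 to 16 per 10000, and 4, 23 and 5 lay just above it at 16 to 32.

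With each cell thinned to 2000 UMIs, Cd74 was detected in 9.54% of macrophage-gated cells in WT (7.12 to 12.5), 21.6% in DTR (19.1 to 24.2) and 17.2% in B6 (13.8 to 21.0). A single DTR cell was too shallow and was left out. Without thinning the shares were 20.9%, 36.2% and 29.5%, at median depths of 16191, 13019 and 13726.5 UMIs. In stromal-gated cells, which should lack the gene, the thinned share was 0.386%, 0.985% and 1.13% at median depths of 13092 to 13197.5 UMIs, so most detections in macrophage-gated cells lay above this background. Across macrophage-gated cells the log-scaled level of Cd74 went with those of H2-Aa, H2-Ab1 and H2-Eb1 at Pearson's r of 0.813 to 0.938 in the 3 libraries, with those of H2-DMa and H2-DMb1 at 0.448 to 0.717, and with that of Ciita at 0.281 to 0.462. These are descriptions over cells that share a library and differ in depth.

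High and remaining macrophage-gated cells differed in genes that take no part in the split. Lyve1, a hyaluronan receptor of resident perivascular macrophages, was at 173, 55.7 and 308 CPM in high cells of WT, DTR and B6 and at 1205, 714 and 1794 CPM in the others. Folr2, a folate receptor of resident macrophages, was at 60.1, 51.8 and 123 CPM against 304, 271 and 468 CPM. Ccr2, the receptor that brings monocytes into tissue, was at 250, 227 and 189 CPM against 17.7, 89.6 and 16.6 CPM. The high cells were thus lower in Lyve1 and Folr2 and higher in Ccr2 in all 3 libraries, but Fcrls was not lower in them. Fcrls, also of resident macrophages, was at 10.0, 12.4 and 9.71 CPM in high cells against 6.14, 7.12 and 2.22. It gave only 4, 22 and 7 UMIs in high cells, and its interval in WT (2.73 to 25.6) includes the level of the others. The monocyte markers Ly6c2, Plac8 and Chil3 reached at most 3.94 CPM in high cells, on few UMIs, and gave no UMI in the others of any library. Haemoglobin and Il1b, singled out after their values were seen, also differed, with Hbb-bs at 15.0, 140 and 19.4 CPM in high cells and 2652, 2544 and 3294 in the others, and Il1b at 3071, 3486 and 712 CPM against 719, 443 and 23.6. The share of cells with Hbb-bs differed less, at 18.2%, 80.6% and 24% of high cells against 29.5%, 81.7% and 21.3% of the others. Of the 8 macrophage markers 8, 5 and 8 were lower in high cells of WT, DTR and B6, with Fcgr1, Cd163 and Ms4a7 the exceptions in DTR. Of the 9 dendritic markers 6, 8 and 6 were higher in them, counting any difference in CPM. Several of these rest on few UMIs. In high cells of WT Cd209a gave 1 UMI and Ccr7 and Batf3 gave 2 each, and in those of DTR Clec9a gave 2 and Xcr1 4. The share of all genes higher or lower in high cells was not counted beside either list. Itgax, an integrin of dendritic cells, was at 32.5, 19.7 and 9.71 CPM against 2.63, 2.40 and 1.88, whereas Clec10a was at 40.04, 10.7 and 33.3 against 9.27, 13.1 and 46.3, and Flt3, Clec9a and Xcr1 were not seen in the high cells of WT. How far dendritic cells or 2 cells in 1 droplet contribute was not tested.

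Macrophage-gated cells below the limit held more H2-Ab1 than H2-Aa. In high cells H2-Ab1 and H2-Aa gave similar numbers of UMIs, with ratios of 1.00 (0.934 to 1.08), 1.03 (0.993 to 1.07) and 0.915 (0.867 to 0.966) in WT, DTR and B6. In the remaining cells, H2-Ab1 gave 218 UMIs in WT where H2-Aa gave 15, 830 in DTR where H2-Aa gave 125, and 152 in B6 where H2-Aa gave 29. The ratio there was 14.5 (8.62 to 26.4), 6.64 (5.50 to 8.08) and 5.24 (3.51 to 8.09). The sum that splits the cells holds both genes, so the contrast of high and remaining cells is not independent of the split. In stromal-gated cells it was 1.09 (0.807 to 1.48), 1.72 (1.32 to 2.23) and 1.38 (1.01 to 1.90), nearer to that of the class II-rich cells. In other myeloid cells it was 1.03, 1.11 and 0.937. The remaining macrophage-gated cells thus differed in this ratio from all 3 other groups, stromal-gated cells included.

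H2-DMa gave 175, 498 and 137 UMIs and H2-DMb1 144, 271 and 119 in the remaining cells. These cells were set apart by a sum that holds H2-Aa but neither of these genes, so the split itself lowers H2-Aa beside them and their ratio to it is no result. By cells, H2-Ab1 was seen without any UMI of H2-Aa, H2-Eb1 or Cd74 in 95 of its 155 positive macrophage-gated cells in WT, 204 of 521 in DTR and 47 of 144 in B6. This was not particular to H2-Ab1. H2-DMa was seen so in 78 of 134, 195 of 417 and 49 of 134 cells, and H2-DMb1 in 75 of 123, 125 of 317 and 66 of 135. Ciita was at 0.251, 1.12 and 0.513 CPM in the remaining cells.

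**Figure D4:**
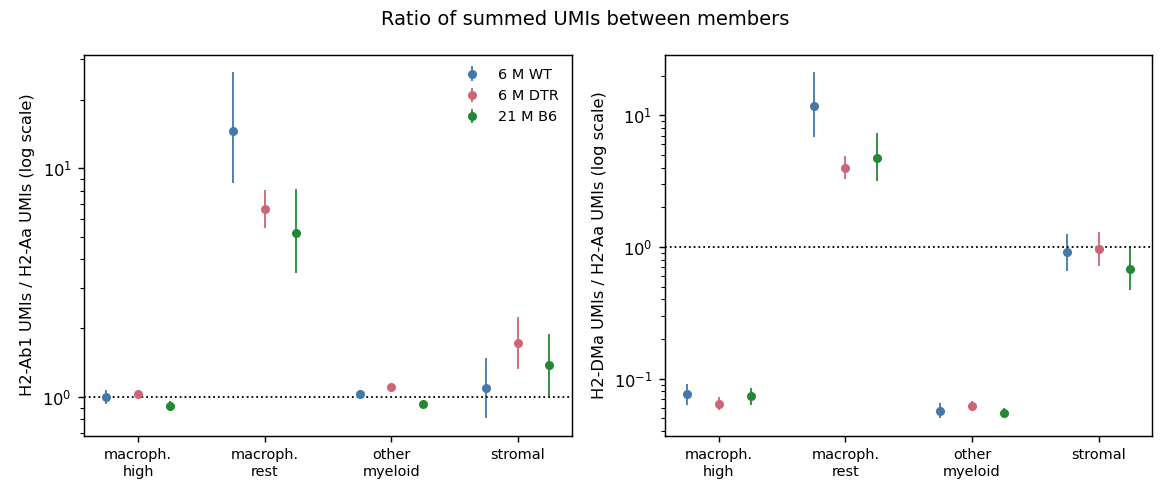
Summed UMIs of H2-Ab1 (left) and H2-DMa (right) divided by those of H2-Aa (log scale) in macrophage-gated cells with at least 16 UMIs of the 4 genes per 10000 (high), in the other macrophage-gated cells (rest), in other myeloid cells and in stromal-gated cells, with exact 95% intervals. The split of macrophage-gated cells uses H2-Aa and not H2-DMa, so the right panel is no comparison of high and rest. The ratio of H2-Ab1 to H2-Aa, both part of the split, is near 1 in high and other myeloid cells of all 3 libraries. It is 5.24 to 14.5 in the remaining macrophage-gated cells.

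Other myeloid cells had far higher levels. Cd74 was at 8928 CPM in WT, 15730 in DTR and 24217 in B6. H2-Aa was at 3068, 4759 and 8838 CPM, H2-Ab1 at 3151, 5281 and 8278 CPM, and H2-Eb1 at 2379, 4350 and 6810 CPM. Each of these was higher in DTR than in WT and higher again in B6, and so were H2-DMa (175, 295 and 484 CPM), H2-DMb1 (290, 463 and 621 CPM) and Ciita (14.6, 29.8 and 35.2 CPM). Over macrophage-gated cells of the same library, the 4 genes were 14.0 times as high in WT (13.7 to 14.3), 12.4 times in DTR (12.2 to 12.6) and 19.3 times in B6 (19.0 to 19.7), while H2-DMa was 4.98, 5.06 and 9.32 times as high. Cells of at least 16 per 10000 made up 31.0% (23.0 to 39.8), 53.2% (43.4 to 62.8) and 78.1% (66.0 to 87.5). The 3 intervals did not overlap, but they cover only counting error over the cells of each pooled library. Their separation is therefore no test of a difference between groups. The level in cells of at least 16 per 10000 was 41889, 47374 and 55135 CPM.

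All 7 members were at least 2-fold higher in B6 than in WT in these cells, where 6.91% of 8274 tested genes were called higher. The intervals for H2-DMb1 (1.89 to 2.42) and Ciita (1.38 to 4.29, on 22 UMIs in WT and 36 in B6) include 2. The calls for H2-DMb1 in B6 over WT and Ciita in DTR over WT did not hold without cells rich in S100a8 and S100a9, as given below. In DTR over WT 1 of 7, Ciita, passed 2-fold, with a background of 7.67%, and in B6 over DTR none did, with a background of 4.13%. The ratio to WT for the 4 genes was 1.72 (1.69 to 1.74) in DTR and 2.75 (2.71 to 2.79) in B6.

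The makeup of the class differed beside these ratios. The 4 neutrophil markers summed to 7792 CPM in WT, 233 in DTR and 1381 in B6, with S100a8 seen in 32.5%, 2.75% and 4.69% of cells. The 9 dendritic markers summed to 398, 607 and 1076 CPM, with all but Clec9a detected in WT and all 9 in the others. Cd209a, a lectin of monocyte-derived and conventional dendritic cells, was seen in 11.9%, 31.2% and 56.3% of cells, and Flt3, the receptor for the growth factor of dendritic cells, in 11.9%, 37.6% and 37.5%. Without the 29, 1 and 2 cells with at least 20 UMIs of S100a8 and S100a9 per 10000, the 4 genes were at 19969, 30212 and 48686 CPM and high cells made up 37.1%, 53.7% and 80.6%. The order of the libraries was the same without those cells. H2-DMb1 was then at 332 CPM in WT and 628 in B6, and Ciita at 16.7 in WT and 29.9 in DTR, each short of 2-fold. The part of the dendritic share was not tested. The 5 mast cell markers summed to 107, 136 and 303 CPM, with Cpa3 in 1, 1 and 2 cells, and the 4 monocyte markers to 478, 170 and 433 CPM. The T or NK check list, which holds Il7r and Icos, summed to 316, 352 and 572 CPM. Macrophage markers were present as well, with all 8 detected in each library and summed to 1426, 1093 and 1001 CPM.

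B cells, a class with class II as a rule, were too few to compare. The gate held 3, 6 and 2 cells, with Cd74 at 17266, 13855 and 9643 CPM. In T or NK cells of DTR the class II UMIs came mainly from a single cell. The 4 genes were at 580 CPM in 312 cells, but 1 cell with 498 UMIs per 10000 held 95.2% of them. WT was at 52.9 CPM and B6 at 19.9 CPM. Without the cell with the most of these UMIs in each library, the levels were 33.3, 28.5 and 15.9 CPM in WT, DTR and B6.

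In stromal-gated cells the peptide-binding chains and Cd74 lay below or near the level expected from free RNA. RNA released from broken cells enters every droplet. The level expected from it was set by 6 macrophage genes (Pf4, Ms4a7, Fcrls, Cbr2, Folr2, Cd163) in the same cells. This was multiplied by the ratio of member to macrophage gene summed over the macrophage, other myeloid and B classes of the library, without T or NK and mixed cells. For the 4 genes 4.90, 11.8 and 9.55 CPM were observed in WT, DTR and B6, where 8.53, 16.4 and 16.5 CPM were expected. The ratio of observed to expected was 0.574 (0.511 to 0.644), 0.721 (0.648 to 0.802) and 0.580 (0.507 to 0.665), below 1 in all 3 libraries. It was 1.48, 1.15 and 1.11 when the ratio of member to macrophage gene came from barcodes under 1000 genes, and 3.93 in WT when mixed cells were kept in the class of their larger marker share. Stromal high cells were absent from WT and B6 (0 of 6746 and 0 of 3287, with upper bounds of 0.0547% and 0.112%), and DTR had 1 of 4061. Single genes spanned 0.488 to 1.01, the highest for H2-Ab1 in DTR.

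H2-DMa stood above the expected level in the same cells of all 3 libraries, and Ciita in those of WT and DTR. H2-DMa was at 0.841, 1.63 and 1.10 CPM (78, 91 and 50 UMIs), or 6.59 (5.16 to 8.32), 6.49 (5.16 to 8.08) and 5.23 (3.82 to 7.02) times the expected level. The UMIs were spread over 76, 87 and 47 cells. Under all alternatives tried the ratio for H2-DMa lay between 2.15 and 8.53, with the lowest from Fcrls alone in B6, where its interval reached down to 0.368. In cells with more tenocyte than epitenon or fibroblast marker UMIs H2-DMa was at 0.849, 1.53 and 1.17 CPM, and in those with more of the latter at 0.818, 1.94 and 1.01 CPM, with overlapping intervals in each library. H2-DMb1, the partner of H2-DMa in H2-M, was at 1.45 (0.913 to 2.19), 1.15 (0.687 to 1.81) and 2.1 (1.32 to 3.20) times the expected level. Ciita gave 12, 10 and 3 UMIs, or 19.6 (10.1 to 34.4), 10.2 (4.87 to 18.9) and 3.92 (0.806 to 11.5) times, and the interval in B6 includes 1. A gene with few UMIs in its own source has an uncertain expectation, which these intervals do not hold. For H2-DMa the overlap with Brd2 is a further limit, since the sources used here give no strand setting for the counting. H2-DMa was not above the expected level in stromal-gated cells alone. In cells that passed no gate it was at 15.1 (7.62 to 27.8), 4.71 (1.83 to 10.2) and 10.1 (5.05 to 18.6) times that level. In mural-gated cells it was at 57.6, 5.76 and 8.82 times on 8, 4 and 1 UMIs, with an interval that includes 1 in B6. Muscle-gated cells gave no H2-DMa UMI.

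**Figure D5:**
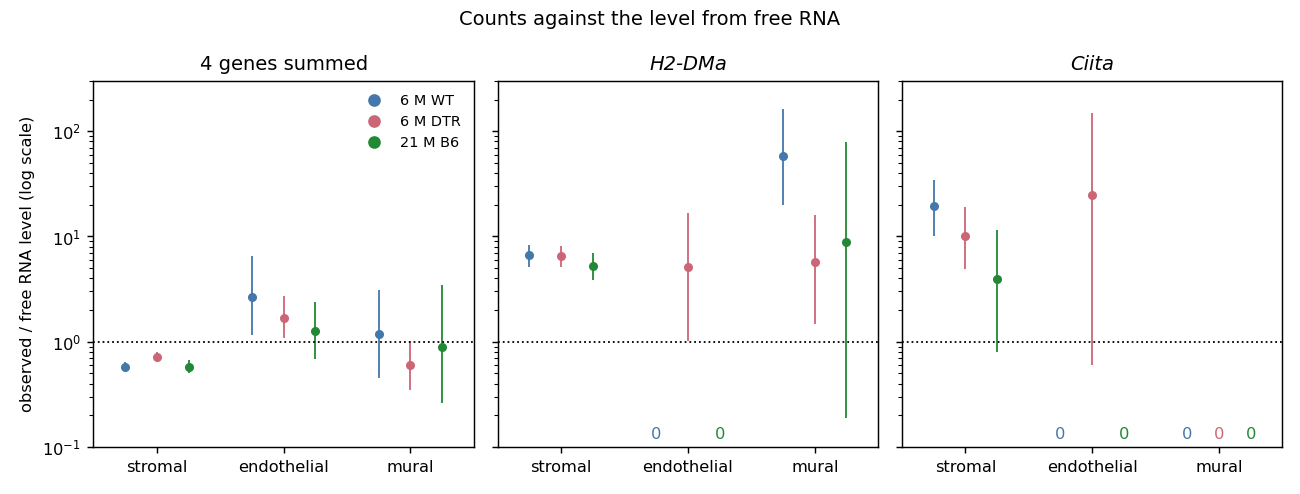
Observed counts divided by the level expected from free RNA (log scale) for the 4 genes summed, H2-DMa and Ciita in stromal-gated, endothelial-gated and mural-gated cells of each library, with exact 95% intervals, a dotted line at 1 and a 0 where no UMI was seen. In stromal-gated cells the 4 genes lie below the line at 0.574 to 0.721, and H2-DMa lies above it at 5.23 to 6.59.

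Endothelial-gated cells had few class II UMIs. The 4 genes were at 17.6 CPM in WT (22 UMIs), 47.4 in DTR (64 UMIs) and 40.04 in B6 (38 UMIs), and Cd74 alone at 5.60, 15.5 and 26.3 CPM. Against free RNA the 4 genes stood at 2.63 (1.16 to 6.49), 1.69 (1.08 to 2.70) and 1.26 (0.692 to 2.37), on 9, 30 and 17 UMIs of the macrophage genes. The UMIs lay in 15, 20 and 15 cells, and the cell with the most held 18.2%, 28.1% and 44.7% of them. Without that cell the ratios were 2.15, 1.35 and 0.694. The intervals of WT and DTR lay above 1 and that of B6 did not, but the value depended on the source. Barcodes under 1000 genes gave 6.78 in WT and 2.4 in B6, Cd163 alone gave 0.874 and 0.647 in WT and DTR, and Cbr2 alone gave 0.157, 0.327 and 0.195. H2-DMa was not seen in endothelial-gated cells of WT and B6, where 3 counts would be 2.40 and 3.16 CPM, and Ciita was seen as a single UMI in DTR.

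Genes outside the members were ranked by likeness to the log2 level of the 4 genes over the 24 sums of 8 classes in 3 libraries. Napsa, an aspartic protease, came first at Pearson's r of 0.967. Slamf7, Gm48065, Tnip3, Slc2a6, Oasl1, BC049352, Gm36486, Gm46224 and Clec4b1 followed at 0.947 to 0.959. H2-DMb1 had an r of 0.979, Ciita of 0.942 and H2-DMa of 0.927. Over single macrophage-gated cells, 4737 genes with at least 20 CPM in each library were ranked. The highest mean r over libraries outside the members was 0.513 for Flrt3, a leucine-rich transmembrane protein, then 0.463 for Cd52 and 0.413 for Ccr2. Tnip3, Ctsh, Il7r, Traf1, Slc7a11, Bcl2a1d and Mgl2 followed at 0.348 to 0.407. The points share libraries, depth and, for the sums, few myeloid classes, and the values are a description.

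The wider class II pathway was counted in macrophage-gated cells. The list holds 34 genes for transcription factors of the promoter, peptide editors, endosomal proteases, costimulators and interferon gamma signalling, of which 33 were in the files and 26 reached 5 CPM. Of these 26, 1 was at least 2-fold higher in DTR than in WT and none lower (backgrounds 1.14% higher and 0.916% lower), none passed in B6 over WT (backgrounds 2.97% and 2.78%), and 1 was lower in B6 than in DTR (background 2.98%). The gene was Il10, which encodes an anti-inflammatory cytokine, at 35.1, 99.2 and 47.2 CPM. The median log2 ratio of the list was -0.11 for DTR over WT and 0.03 for B6 over WT. Ctss, the protease that trims the invariant chain, was at 1122, 1633 and 1445 CPM, and Cd86, a costimulator, at 210, 147 and 185 CPM. For the 6 members the median was 0.94 in both.

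In other myeloid cells 28 to 30 of the 33 were tested. In B6 over WT 3 of 30 were higher, H2-Eb2, H2-DMb2 and H2-Ob (background 6.91%). There 6 were lower, Nfyb, Ctsl, Ctsd, Lgmn, Irf8 and Il10 (background 10.6%). H2-Eb2 rested on 3, 8 and 11 UMIs in WT, DTR and B6. In DTR over WT H2-DMb2 was higher (background 7.67%) and Ctsl, Ctsd, Lgmn and Il10 were lower (background 5.56%). H2-DMb2, the paralog of H2-DMb1, was at 9.97, 28.7 and 32.3 CPM in WT, DTR and B6, and H2-Ob, a chain of the H2-M inhibitor H2-O, at 8.64, 16.6 and 19.5 CPM. Of the endosomal proteases Ctsl, Ctsd and Lgmn were lower and Ctss and Ctsb did not pass 2-fold, with Ctsl at 395, 161 and 94.8 CPM, Ctsd at 360, 162 and 108 CPM and Lgmn at 240, 94.5 and 117 CPM. In B6 over DTR H2-Eb2 and Jak2 were higher (background 4.13%) and Irf8 was lower (background 10.4%). The medians of the list were -0.04, 0.06 and 0.17 on the log2 scale for DTR over WT, B6 over WT and B6 over DTR, beside 0.12, -0.04 and -0.14 for all tested genes.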

How the data were processed

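The authors deposited UMI counts per gene and barcode for each library, made with Cell Ranger on 10x Chromium 3′ libraries. The file headers name version 6.0.1 and the submitters' processing notes name 2.1.1. Neither genome build nor strand setting is given in the sources used here. The counts were used as deposited. Cells were gated by summed marker UMIs per 10000 (at least 6 for macrophage, 5 for other myeloid, T or NK, B and endothelial, 10 for Schwann and muscle, 12 for mural and 50 for stromal), with 2 or 3 markers detected, and counts were summed per class and library and scaled to CPM. Scrublet called 2, 7 and 3 doublets, under 0.5% of cells, so it did not work here and no doublets were removed. Shares were taken after thinning to 2000 UMIs (seed 11). Libraries held 92707026 to 148149903 UMIs. Each sample was grouped by its genotype, age and treatment labels. The named genes were the members, genes of the wider list past 2-fold or needed for their role, the T-side genes, the 10 most alike by each measure, and the markers. The members and lists were chosen with earlier results of these data known. Alternatives covered cell filters, gates, mixed cells, doublets, TMM scaling (edgeR 4.0.16), sex, thinning and the free RNA source. Python 3.11.15, numpy 2.4.6, scipy 1.17.1, scanpy 1.11.5 and R 4.3.3 were used. The 2-fold calls, ratio intervals, thinning and free RNA ratio were tested on simulated data, and the other steps were not. The simulated free RNA was drawn from the classes that set the expectation, so it cannot test whether real free RNA has that makeup. H2-Ea, which was not found in the files, and promoters of H2-Ab1, Cd74 and Ciita were not analysed here.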

Additional observations from a re-analysis of the deposited data

Results flagged for a closer look

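Barcodes outside the filter of 1000 to 5000 genes, which no comparison used, held the 4 genes H2-Aa, H2-Ab1, H2-Eb1 and Cd74 above the level in stromal-gated cells of the same library (4.90, 11.8 and 9.55 CPM in WT, DTR and B6). Barcodes under 1000 genes, 6295, 8646 and 6307 in number, held 108, 189 and 165 CPM. Barcodes over 5000 genes, 732, 659 and 360 in number, held 159, 627 and 313 CPM.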

How the results depend on the processing

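With 1 library per group no replicate was left out, and no block could be fitted. No paired analysis was possible because each group is a single library. The results below are those that moved beyond the reported interval, each in the order WT, DTR, B6 or DTR over WT, B6 over WT, B6 over DTR, and the cause was not tested. In all, 141 principal values stayed within it, 88 moved and 12 changed direction. Counts of wider-list genes have no interval and were judged by a fold limit instead. The tally includes the alternative without Scrublet doublets, which removed only 2, 7 and 3 cells and is a weak check. The ratios of all 7 members to WT in macrophage-gated cells stayed above 1 under every alternative except H2-DMb1 in B6 over WT, at 0.953 in male cells. Depth limits Ciita, with 7 to 42 UMIs in macrophage-gated cells, and the endothelial class most.

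For the 4 genes in macrophage-gated cells (1.94, 1.99, 1.03), the ratios were 1.83, 2.7 and 1.47 at a mitochondrial limit of 5%, and 2.13 and 1.08 for both B6 comparisons at 20%. Without the upper limit of 5000 genes they were 2.32, 2.21 and 0.954, with gates doubled 1.89, 2.27 and 1.2, and with gates halved 2.05, 2.31 and 1.13. TMM factors gave 2.04 and 1.05 for both B6 comparisons. Female cells gave 2.75, 2.22 and 0.809, and male cells 1.19 and 0.61 for both B6 comparisons. Without the cell with the most UMIs, an alternative added after the data were seen, they were 2.16, 2.12 and 0.982. B6 over DTR thus changed direction under 4 alternatives.

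The Cd74 share of macrophage-gated cells was 6.36% and 17% in WT and DTR when thinned to 1000 UMIs, 26.3% and 22.6% in DTR and B6 at the deeper thinning, 20.9%, 36.2% and 29.5% unthinned, and 5.57%, 15.2% and 11.5% with at least 2 UMIs. The share of high cells in DTR was 17% from 8 per 10000 and 10.8% from 32, both added later.

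Against free RNA in endothelial-gated cells, barcodes under 1000 genes gave 6.78 in WT and 2.4 in B6, Cbr2 alone 0.157, 0.327 and 0.195, Cd163 alone 0.874 and 0.647 in WT and DTR, and in B6 Ms4a7 alone 0.444 and the 5% limit 0.397; some single reference genes at 0 gave no value. In stromal-gated cells, barcodes under 1000 genes gave 1.48, 1.15 and 1.11, mixed cells kept 3.93, 0.464 and 0.458, Fcrls alone 0.679, 0.846 and 0.239, and Cbr2 alone 0.188, 0.362 and 0.364. DTR and B6 gave 0.637 and 0.679 without the upper limit, 0.947 and 0.442 with Ms4a7 alone, and 0.352 and 0.701 with Cd163 alone. Folr2 alone gave 0.528 in DTR, and B6 was 0.269 at the 5% limit, 0.499 with gates doubled and 0.669 over all barcodes.

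The level in other myeloid over macrophage-gated cells was 13.4, 12.2 and 15.1 at the 5% limit, 17.9 in B6 at 20%, 15.9, 12.1 and 19 without the upper limit, 16.1, 14.8 and 20 with gates doubled, 15.2, 11.8 and 17 with gates halved, and 12.6 and 20 in DTR and B6 with mixed cells kept. Without S100a8 and S100a9 cells (added later) it was 15.9 in WT. The UMI share of both classes was 86.6%, 94% and 99.2% at the 5% limit, 83.9%, 94.2% and 98.1% without the upper limit, 85.2% and 94.1% in WT and DTR with gates doubled, and in DTR 89.2% with gates halved and 96.6% with mixed cells kept. Genes of the wider list past 2-fold numbered 3, 1 and 2 without the CPM filter, 0 in B6 over DTR at the 5% limit, and 1 in B6 over WT at 20%, without the upper limit and with gates doubled.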

Other observations

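Genes of the T cell side of class II recognition showed another distribution. Lag3, which encodes a receptor that binds class II molecules, was at 8.64 CPM (8.05 to 9.26) in stromal-gated cells of WT, 9.92 (9.11 to 10.8) in DTR and 10.9 (9.95 to 11.9) in B6, on 801, 555 and 497 UMIs. In T or NK cells Lag3 gave 1, 4 and 0 UMIs, and in macrophage-gated cells it was at 4.89, 2.66 and 6.09 CPM. Lag3 UMIs were thus denser in stromal-gated than in macrophage-gated cells of every library.

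Cd4, the coreceptor for class II, was at 20.7 CPM in T or NK cells of WT, 64.7 in DTR and 2.85 in B6, on 25, 170 and 2 UMIs. Ifng, the cytokine that induces class II, gave 3, 38 and 0 UMIs in the same cells, or 2.48 CPM (0.511 to 7.25), 14.5 CPM (10.2 to 19.8) and 0 CPM (up to 5.25). The gate held 119, 312 and 67 cells.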
